A study of Mus musculus with 2 samples.

Results

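The genes described here are the Wnt receptors and the components of the beta-catenin pathway in NE4C cells, an established mouse neural stem cell line. The members were taken by gene symbol from the deposited table. Of 53 symbols, 52 were in the table of 16803 genes, and 51 of them reached 10 reads over both libraries. Dkk3 was not analysed here, and Fzd8, with 3 reads in the control and 5 in the HTL treatment library, had too few reads to be compared.

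RNA had been sequenced from 1 normal culture (control) and 1 that received HTL (homocysteine thiolactone), the cyclic thioester of homocysteine, known for its reaction with lysines in proteins. The study used the pair to ask how gene expression in neural cells differs under high HTL, in the setting of neural tube closure. Both libraries came from the same cell line, and dose and duration of the treatment are not given for them. With 1 library per condition the differences below lack any replicate check, and every interval and call covers counting error between these 2 libraries only. In such bulk samples, fewer cells of a type and less RNA per cell cannot be told apart.

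Wnt proteins are secreted ligands that bind frizzled receptors together with the co-receptors Lrp5 and Lrp6 and, through the dishevelled proteins, stop a destruction complex of axin, Apc, Gsk3 and casein kinase 1 from marking beta-catenin for degradation. Stabilised beta-catenin then joins the TCF/LEF factors on DNA and displaces their TLE co-repressors. In the early neural plate the pathway is known for its part in patterning and in the growth of progenitors, while the frizzled and dishevelled proteins also serve planar cell polarity, which neural tube closure needs.

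The control library held 10350665 reads and the HTL treatment library 9102076. Neural stem cell markers were present in both: 8 of 10 were tested, Nes had 1617 and 1365 reads, and Msi1 had 617 and 555 reads. Fabp7 (2 reads in each library) and Hes5 (1 and 0 reads) were at or near 0. Among these markers Sox1, Sox2 (34.74 and 12.57 FPKM) and Vim (78.54 and 38.84 FPKM) were lower in the HTL treatment library by the call used below. Vim and Sox2 had the largest falls in FPKM. Of the 8 tested, 5 had log2 ratios below 0 and 3 above, with Prom1 the highest at 0.51. The summed level of the list was 208.6 FPKM in the control and 148.5 FPKM in the HTL treatment library. For 7 neuron markers it was 38.6 and 52.9 FPKM, of which Tubb3 (16.34 and 24.79 FPKM) and Stmn2 (15.71 and 23.25 FPKM) made up most, while on column totals 4 of the 7 had log2 ratios below 0 and Dcx was called lower. The summed levels were low in both libraries for 5 mesenchymal (2.30 and 2.42 FPKM), 5 oligodendrocyte (3.98 and 4.50), 3 microglia and blood (0.81 and 0.61), 3 endothelial (1.55 and 1.19) and 2 astrocyte markers (0.72 and 1.98, with Gfap at 2 and 0 reads and Aldh1l1 called higher). The part of these shifts in the results below was not tested.

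Levels of the 52 genes ran from 0.09 FPKM for Fzd8 to 211.6 FPKM for Ctnnb1 in the control library. Beta-catenin itself, the tankyrase Tnks2 and the casein kinase Csnk1a1 were, in that order, the most abundant members there. Together the members summed to 1153 FPKM in the control and 1242 FPKM in the HTL treatment library. The FPKM of all genes also summed to more in the latter, 528567 against 473738, which bears on each sum of FPKM given here.

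**Figure D1:**
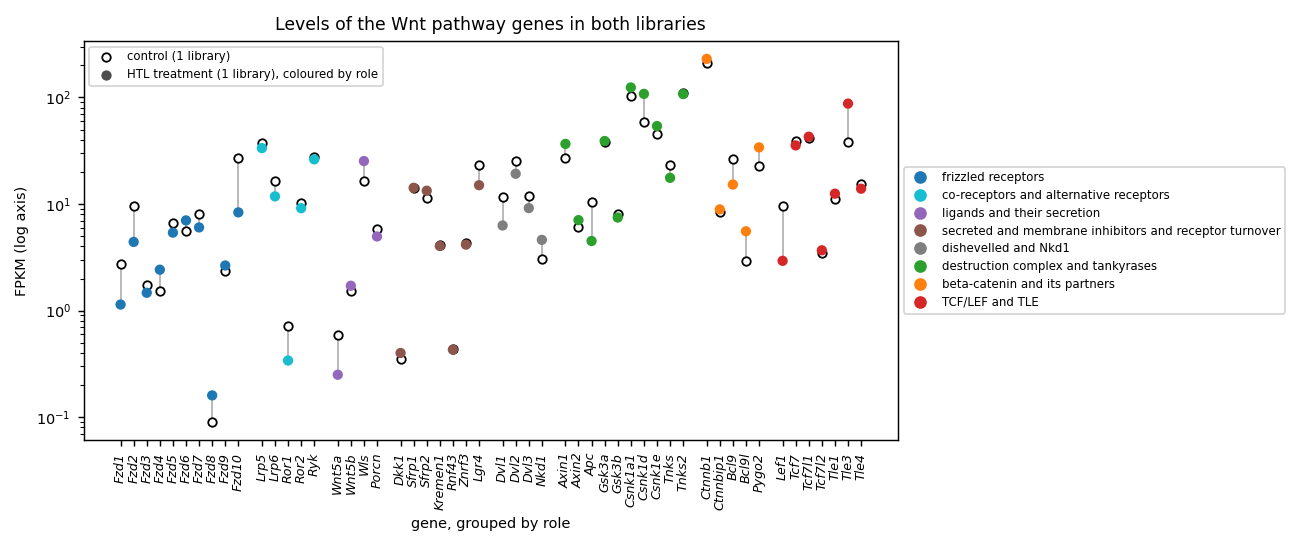
Level of each of the 52 members (FPKM, log axis) in the control library (open circles) and the HTL treatment library (filled circles, coloured by role). Fzd10, Lef1 and Apc sit visibly below their control level and Tle3 above it, while Ctnnb1, the most abundant member, is at 211.6 and 230.2 FPKM.

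A gene was called when an exact binomial test of its reads against the library totals gave an adjusted p of at most 0.001 and the level differed at least 2-fold. Of the 51 members tested, 6 were called: with HTL treatment 1 was higher and 5 were lower. Over all 13442 genes tested the call passed 10.8%, with 2.81% higher and 7.98% lower, so the 11.8% of members called lay near the background. At that share, 0 or 1 call in a role group of 5 to 10 genes does not set the group apart. Lef1, Fzd10, Fzd1, Apc and Fzd2 fell, in that order of size, and Tle3 rose. The median log2 fold change (HTL treatment over control, the log2 ratio of the plots) of the members was -0.05, against -0.14 for all genes tested, and 30 of 51 members lay above the median gene. The split of the calls depended on the scaling. With TMM or the median of ratios it was 3 higher (Tle3, Bcl9l and Csnk1d) and 4 lower (Lef1, Fzd10, Fzd1 and Apc), and with the upper quartile it was 2 higher and 5 lower. The calls over all genes shifted in the same way, from 378 higher and 1072 lower on column totals to 552 and 800 with TMM, 559 and 788 with the median of ratios and 498 and 860 with the upper quartile. A further count took genes that differed at least 1.5-fold with a 95% interval beyond 0. By that rule 6 members were higher and 10 lower, 11.8% and 19.6% of those tested, where all genes gave 9.96% and 21.5%.

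**Figure D2:**
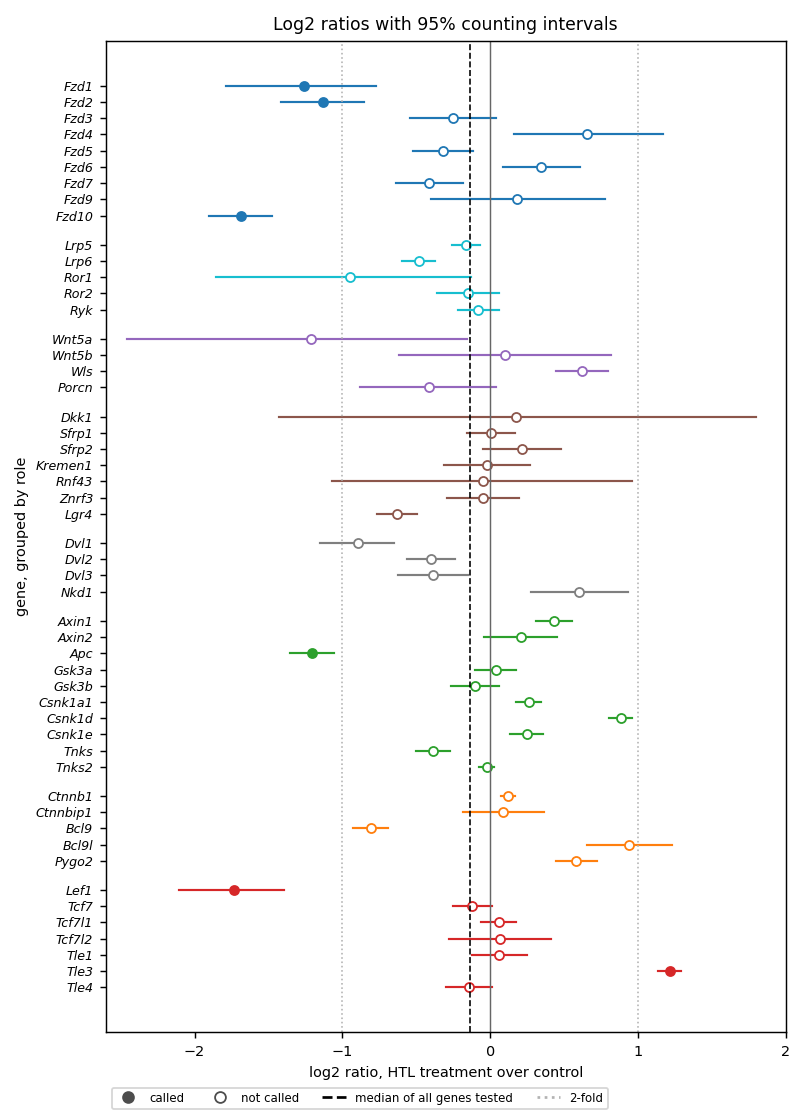
Log2 ratio of HTL treatment over control for the 51 members tested, with 95% Clopper-Pearson intervals that cover counting error only. Filled circles are called genes: Lef1, Fzd10, Fzd1, Apc and Fzd2 lie left of the 2-fold line and Tle3 right of it, while most members lie close to the median of all genes tested (dashed, -0.14).

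The frizzled receptors, the seven-pass membrane proteins that bind Wnt ligands, held 3 of the 6 called genes. Of 9 frizzled genes tested, 3 fell (33.3%, where 7.98% of all genes did), none rose, and 6 did not pass the call. Fzd10 (gene ID 93897; NCBIM37 chromosome 5, 129106719 to 129109968, plus strand) was the most abundant frizzled gene. It had 843 reads in the control and 230 in the HTL treatment library, or 26.96 and 8.35 FPKM. Its log2 fold change was -1.69 (95% interval -1.91 to -1.48), at percentile 3.82 of all genes tested. The annotation lists it as a pair of overlapping entries on the same strand.

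Fzd2 (gene ID 57265; chromosome 11, 102465745 to 102469372, plus strand), a receptor also known from planar cell polarity, had 366 and 147 reads, or 9.68 and 4.41 FPKM. Its log2 fold change was -1.13 (-1.42 to -0.85), and it came just short of 2-fold under TMM, the median of ratios and when measured from genes of similar length (-0.96). Fzd1 (gene ID 14362; chromosome 5, 4753842 to 4758216, minus strand) had 126 and 46 reads and a log2 fold change of -1.26 (-1.79 to -0.77). Fzd7, which belongs to the same subfamily as Fzd1 and Fzd2, had 407 and 269 reads and a log2 fold change of -0.41 (-0.64 to -0.19). Its interval did not overlap those of Fzd1 and Fzd2. The deposited estimated counts of these 3 genes were fractional, and whether they share reads with other genes was not tested.

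The other frizzled genes lay on both sides of 0. Fzd5 had a log2 fold change of -0.32 (-0.52 to -0.11) and Fzd3 one of -0.25 (-0.54 to 0.04). Fzd6 had 236 and 264 reads and a log2 fold change of 0.35 (0.09 to 0.61), and Fzd4 had 59 and 82 reads and one of 0.66 (0.16 to 1.17). Fzd9 had 51 reads in each library, a log2 fold change of 0.18 (-0.40 to 0.77). The frizzled pool therefore differed in size and in make-up. Summed over the 10 genes it was 65.4 FPKM in the control and 39.0 FPKM in the HTL treatment library, and without Fzd10 it was 38.4 and 30.7 FPKM. Fzd10 made up 41.2% of the control pool and 21.4% of the HTL treatment pool. Fzd6 moved from rank 5 to rank 2, from 8.47% to 17.98% of the pool, and Fzd2 moved from rank 2 to rank 5.

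The co-receptors and alternative receptors gave no call, and all 5 had log2 fold changes below 0 on column totals. Ryk lay above 0 under TMM, and Lrp5, Ror2 and Ryk did when measured from genes of similar length (0.12, 0.05 and 0.09). Lrp5, the more abundant Wnt co-receptor, had 2029 and 1596 reads, or 37.5 and 33.5 FPKM, and a log2 fold change of -0.16 (-0.26 to -0.07), which is close to the median gene. Lrp6 had 1625 and 1022 reads and a log2 fold change of -0.48 (-0.60 to -0.37), and the 2 intervals did not overlap. Lrp6 has a long transcript of 9368 bases, and measured from genes of similar length it was at -0.11. Ryk, a Wnt-binding receptor with an inactive kinase domain, had 943 and 785 reads and Ror2, a receptor tyrosine kinase for Wnt5a, had 422 and 335 reads. Both of their intervals included 0. Ror1 had 40 and 18 reads and a log2 fold change of -0.95 (-1.86 to -0.13).

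Wnt ligands were scarce in these cells. Wnt5a, a ligand of the beta-catenin-independent branch, had 27 and 10 reads, a log2 fold change of -1.21 (-2.46 to -0.16) that did not pass the call. Wnt5b had 36 and 34 reads and a log2 fold change of 0.10 (-0.62 to 0.82). The secretion machinery was more abundant. Wls, which carries Wnt proteins to the cell surface, had 465 and 628 reads, or 16.5 and 25.3 FPKM, and a log2 fold change of 0.62 (0.44 to 0.80). Porcn, the enzyme that attaches the lipid of Wnt proteins, had 103 and 68 reads and a log2 fold change of -0.41 (-0.88 to 0.04).

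The secreted inhibitors and the regulators of receptor turnover gave no call among 7 genes tested, where 10.8% of all genes were called. Sfrp1 and Sfrp2, secreted decoys that bind Wnt, had log2 fold changes of 0.01 (-0.16 to 0.17) and 0.22 (-0.05 to 0.48). Dkk1, an inhibitor that binds Lrp5 and Lrp6, had 8 reads in each library, so its interval ran from -1.43 to 1.80. Its membrane partner Kremen1 had 212 and 184 reads and a log2 fold change of -0.02 (-0.31 to 0.27). Znrf3, a ubiquitin ligase that removes frizzled receptors from the surface, had 307 and 261 reads and a log2 fold change of -0.05 (-0.29 to 0.19), and the related Rnf43 had 20 and 17 reads. Lgr4, the receptor for the R-spondins that block these ligases, had the most reads of the group, 1236 and 701. It had a log2 fold change of -0.63 (-0.77 to -0.50), short of 2-fold.

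The 3 dishevelled genes, which relay the signal from frizzled receptors, were all below the median gene. Dvl2, the most abundant, had 778 and 518 reads, or 25.5 and 19.2 FPKM, and a log2 fold change of -0.40 (-0.56 to -0.24). Dvl3 had 368 and 248 reads and a log2 fold change of -0.38 (-0.62 to -0.15). Dvl1 had 413 and 195 reads and a log2 fold change of -0.90 (-1.15 to -0.65), the lowest of the 3. Exons of Dvl1 and Dvl2 overlap exons of Tas1r3 and Acadvl on the opposite strand, and use of strand in the counting is not given in the sources used here. Nkd1, an inhibitor that binds dishevelled, had 137 and 183 reads and a log2 fold change of 0.60 (0.28 to 0.93).

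In the destruction complex Apc fell, and 9 of 10 genes, counted with the tankyrases, did not pass the call, so that the share called, 10%, was near the 10.8% of all genes. Apc (gene ID 11789; chromosome 18, plus strand), the large scaffold of the complex and a tumour suppressor, had 1359 reads in the control and 519 in the HTL treatment library, or 10.39 and 4.50 FPKM. Its log2 fold change was -1.20 (-1.35 to -1.06), and measured from genes of similar length it was -0.83, short of the call. The other scaffold, Axin1, differed in the opposite direction, with 1046 and 1242 reads and a log2 fold change of 0.43 (0.31 to 0.55). Axin2, which beta-catenin itself induces, had 274 and 278 reads and a log2 fold change of 0.21 (-0.04 to 0.45).

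None of the 5 kinases of the complex passed the call. Gsk3a had 898 and 811 reads, a log2 fold change of 0.04 (-0.10 to 0.18), and Gsk3b had 699 and 573 reads, one of -0.10 (-0.26 to 0.06). Csnk1a1, which primes beta-catenin for Gsk3, had 2162 and 2277 reads and a log2 fold change of 0.26 (0.17 to 0.35). Csnk1d had 2262 and 3668 reads, or 58.6 and 108.1 FPKM, and a log2 fold change of 0.88 (0.81 to 0.96), which lay outside the intervals of Csnk1a1 and Csnk1e. It reached 2-fold with TMM or the median of ratios. Its exons overlap Slc16a3 on the opposite strand. The tankyrases mark axin for degradation. Tnks2, at 109.7 and 107.7 FPKM, had a log2 fold change of -0.02 (-0.07 to 0.02) that turned positive under the 3 other scalings, and Tnks had one of -0.39 (-0.50 to -0.27), which was -0.01 when measured from genes of similar length.

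Beta-catenin and its partners gave no call. Ctnnb1 had 7834 control and 7499 HTL treatment reads, a log2 fold change of 0.12 (0.08 to 0.17). Its exons overlap Ulk4 on the opposite strand. Ctnnbip1, which blocks the binding of beta-catenin to TCF factors, had 234 and 219 reads and a log2 fold change of 0.09 (-0.18 to 0.36). The paralogues Bcl9 and Bcl9l, which bridge beta-catenin to Pygo proteins, differed in opposite directions. Bcl9 had 1707 and 858 reads and a log2 fold change of -0.81 (-0.93 to -0.69), while Bcl9l had 162 and 273 reads and one of 0.94 (0.65 to 1.23), which passed the call under the 3 other scalings. Bcl9 made up 90.2% of the pair's summed FPKM in the control and 73.3% in the HTL treatment library. Pygo2 had 746 and 982 reads and a log2 fold change of 0.58 (0.44 to 0.72).

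Among the nuclear factors Lef1 fell and the co-repressor Tle3 rose. Lef1 (gene ID 16842; chromosome 3, 130813389 to 130927274, plus strand), which carries beta-catenin to DNA, had 323 reads in the control and 85 in the HTL treatment library, or 9.67 and 2.93 FPKM. Its log2 fold change of -1.74 (-2.10 to -1.39) was the lowest of the members, at percentile 3.57 of all genes tested. None of the other 3 factors of the family passed the call. Tcf7l1, which acts mainly as a repressor, had 1223 and 1119 reads and a log2 fold change of 0.06 (-0.06 to 0.18). Tcf7 had 1083 and 876 reads and one of -0.12 (-0.25 to 0.01), and Tcf7l2 had 149 and 137 reads and one of 0.06 (-0.28 to 0.41). Lef1 made up 10.4% of the summed FPKM of the family in the control and 3.45% in the HTL treatment library.

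Tle3 (gene ID 21887; chromosome 9, 61220190 to 61266297, plus strand), a co-repressor that binds TCF factors, had 2044 reads in the control and 4170 in the HTL treatment library, or 37.9 and 87.6 FPKM. Its log2 fold change was 1.21 (1.14 to 1.29), at percentile 96.9 of all genes tested. Its relatives were apart from it: Tle1 had 504 and 463 reads, a log2 fold change of 0.06 (-0.12 to 0.25), and Tle4 had 767 and 610 reads, one of -0.14 (-0.30 to 0.01). The summed FPKM of these 3 genes was 64.6 in the control and 114.0 in the HTL treatment library, and the share of Tle3 in it was 58.6% and 76.8%.

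**Figure D3:**
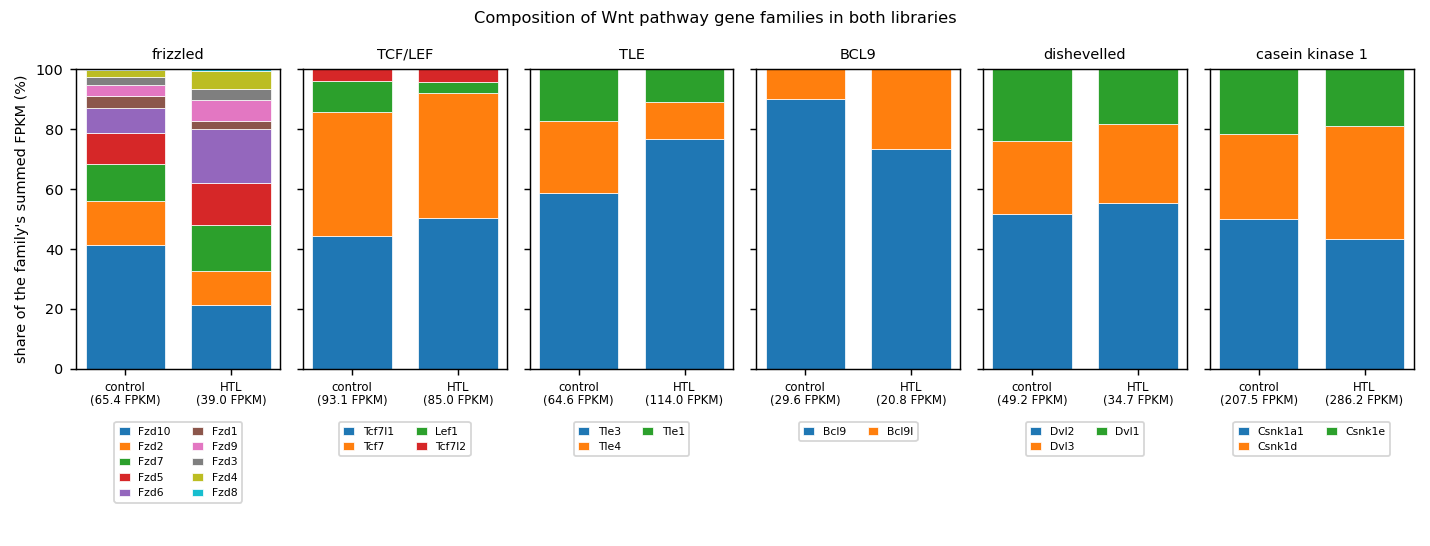
Share of each gene (%) in the summed FPKM of its family in the control and HTL treatment libraries, with the sum below each bar. The share of Fzd10 is 41.2% and 21.4%, that of Lef1 10.4% and 3.45%, that of Tle3 58.6% and 76.8%, and that of Bcl9 90.2% and 73.3%.

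Because TCF/LEF factors bind DNA, the promoters of the members were searched for the letters CTTTGAT and CTTTGAA on both strands. RefSeq windows (GRCm38.p6) of 300 bases, from 250 before to 50 after the start, were matched for 35 members. Of their 51 windows, 3 held a match (5.88%), as did 5.89% of the windows of all genes tested. Of the 6 called members 4 had a window, and none of them held a match. The 3 stretches are shown for orientation, 5′ to 3′ on the gene's strand, with the match in capitals. None of the 3 genes was called.
Dkk1 (chr19:30549595-30549624, minus strand): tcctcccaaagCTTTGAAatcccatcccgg
Wnt5b (chr6:119449439-119449468, minus strand): agtaagtctctCTTTGATctgctccctgtc
Gsk3a (chr7:25237991-25238020, minus strand): tgactgtgtttTTCAAAGtgcttccaagtt
In Gsk3a the capitals are the reverse complement of CTTTGAA. A match is a run of letters and not a known binding site.

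Genes that beta-catenin is known to induce did not differ in 1 direction. Of 18 tested, 1 rose and 4 fell, 5.56% and 22.2%, where all genes gave 2.81% and 7.98%. With TMM, or relative to genes of similar length, 1 rose and 2 fell. This list shares 7 genes with the members, of which Lef1 was called. Axin2, Nkd1, Znrf3, Rnf43, Dkk1 and Tcf7, the other 6, did not pass. Of the 11 that are no member, 4 were called, and among these Myc fell the most, by 2.09 on the log2 scale (interval -2.40 to -1.79; 538 and 111 reads). Tnfrsf19 and T fell by 1.10 and 1.04, and both fell short of 2-fold under TMM. Id2, an inhibitor of basic helix-loop-helix factors, rose, with 25 and 111 reads and a log2 fold change of 2.31 (1.70 to 3.02). Ccnd1 had a log2 fold change of -0.77 (-0.98 to -0.56). Sp5, a direct target, had only 10 and 1 reads and a lower log2 fold change than Myc, -2.66 (-8.58 to -0.32), which did not pass the call.

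Other genes of the Wnt pathway gave shares of calls like those of all genes. Of 61 tested, 2 rose and 5 fell, 3.28% and 8.20%, with a median log2 fold change of -0.07. Ligands were again few: of 17 other Wnt genes 13 were in the table and 7 had enough reads. Wnt4 was the highest of them, with 112 and 110 reads and a log2 fold change of 0.16 (-0.23 to 0.55). Wnt8a was called lower on 20 and 1 reads, with a log2 fold change of -3.62 and an interval from -9.51 to -1.49. Of 17 other modulators tested, 12 had log2 ratios above 0 and 5 below, with a median of 0.34. Tpbg, a membrane inhibitor of Wnt signalling, rose by 1.13 on the log2 scale (63 and 122 reads). Rspo3, an R-spondin ligand of Lgr receptors, fell by 1.72 (50 and 13 reads). Rspo2, on only 5 and 18 reads, had a log2 fold change of 1.92 (0.55 to 3.82) that did not pass the call.

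Of 37 other intracellular genes tested, 1 rose and 3 fell, 2.70% and 8.11%, close to the 2.81% and 7.98% of all genes. Nkd2, the paralogue of Nkd1, rose by 1.18 (54 and 108 reads). Cxxc4, an inhibitor that binds dishevelled, had 87 and 7 reads and a log2 fold change of -3.37 (-4.81 to -2.35). Frat1, which binds Gsk3, fell by 1.39 (290 and 97 reads). Its paralogue Frat2 had 330 and 291 reads and a log2 fold change of 0.00 (-0.23 to 0.24). Usp34, which removes ubiquitin from axin, fell by 1.24 (2894 and 1078 reads). Measured from genes of similar length it was at -0.86, short of the call. Among 143 genes tested that are no member but carry a process term named for Wnt in the table, 7 rose and 16 fell, 4.90% and 11.2%, where all genes gave 2.81% and 7.98%. With TMM 8 rose and 13 fell, and relative to genes of similar length 8 rose and 10 fell. This list shares 31 tested genes with the 61 above, and the 4 called in both are Nkd2, Rspo3, Usp34 and Wnt8a. The largest called rise was that of Siah2, a ubiquitin ligase, with 32 and 137 reads and a log2 fold change of 2.26, and the largest called fall that of Wnt8a. Dlx5 (2 and 13 reads) and Tlr2 (3 and 17 reads) had higher log2 fold changes, 2.60 and 2.49, that did not pass the call on column totals. Tlr2 passed it with TMM and with the median of ratios. Only 23 of the 52 members carry such a term, so the terms cover the pathway in part.

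**Figure D4:**
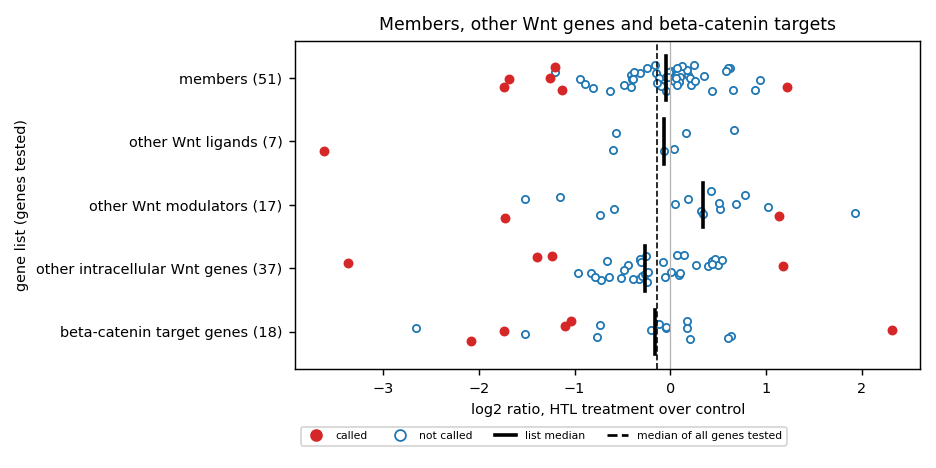
Log2 ratio of HTL treatment over control for single genes of the members, 3 lists of other Wnt genes and the beta-catenin target genes, with called genes in red, list medians as bars and the median of all genes tested dashed (-0.14). Called genes lie on both sides of 0 in 4 of the 5 lists, and the 7 Wnt ligands tested hold 1, Wnt8a.

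Log2 ratios in these libraries were lower for longer transcripts, and the members are long. Their median length was 4028 bases, against 2888 for all genes tested, and with all genes split into 10 equal classes by length, 17 of 51 lay in the longest 2. The median log2 fold change over all genes was -0.38 in the longest class, where the 8 members had a median of -0.28. Measured from the median of genes in the same length class, Lef1 was at -1.57, Fzd10 at -1.52, Fzd1 at -1.06 and Fzd2 at -0.96. Apc, with 12453 bases, was at -0.83, and Tle3 was at 1.49. On this scale Apc and Fzd2 did not reach 2-fold, while Csnk1d (1.05) and Bcl9l (1.22) did. With the adjusted p kept from column totals, the calls were 3 higher and 3 lower. Over all genes the calls on this scale were 513 higher and 775 lower, 9.58% of those tested. The median of the 51 members was 0.19. Of the members below 0 on column totals, 12 lay above 0 on this scale: Fzd3, Fzd5, Lrp5, Ror2, Ryk, Kremen1, Rnf43, Znrf3, Gsk3b, Tnks2, Tcf7 and Tle4. Among those that stayed below 0, Lgr4 was at -0.35, Bcl9 at -0.53, Fzd7 at -0.13, Dvl2 at -0.23 and Dvl3 at -0.21. The part of length in the falls was not tested.

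**Figure D5:**
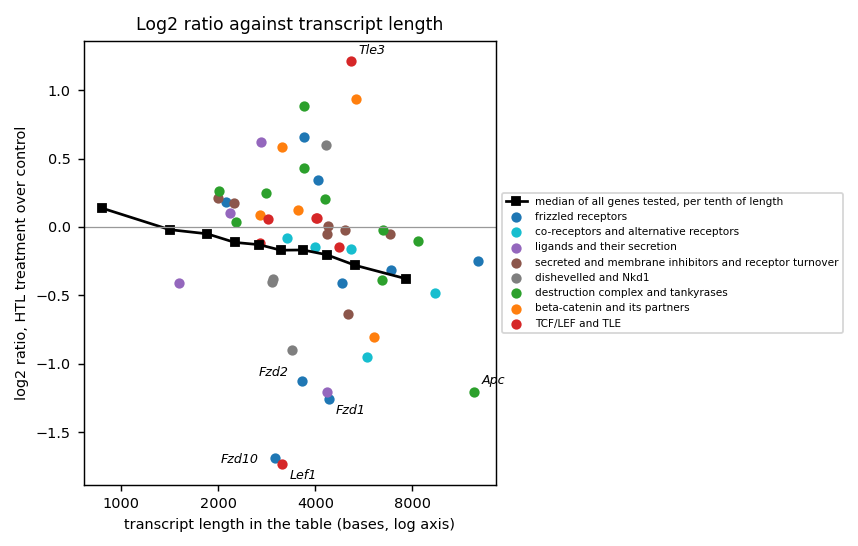
Log2 ratio of HTL treatment over control against transcript length (bases, log axis) for the 51 members, coloured by role, with the median of all genes tested in each of 10 length classes (black squares). The black line runs from 0.14 in the shortest class to -0.38 in the longest, Tle3 lies far above it, and Lef1, Fzd10, Fzd1, Fzd2 and Apc lie far below it.

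The spread between cultures was not measured, since each condition had 1 library. When the exact test of edgeR was given a coefficient of variation of 0.1 between cultures, which is an assumption, the same 6 members passed both cutoffs, as did 8.38% of all genes. With 0.2 none of the 51 did, and 120 of all genes did, 0.893% of those tested.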

How the data were processed

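RNA of NE4C cells was sequenced in 1 control and 1 HTL treatment library, grouped by sample titles. The labels name an Illumina TruSeq RNA kit for the libraries, run on a BGISEQ-500. Per the study's methods, reads were mapped to the mouse genome and genes and counted with RSEM. The submitters' processing notes name mm9, and versions, annotation and strand are not given in the sources used here. The table deposited by the authors holds estimated counts, not normalized, and FPKM, which the authors scaled for length and depth. It also holds the authors' log2 ratio, p-value and FDR columns, which were not used, and the transcript length in bases, used as given.

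Estimated counts were rounded to whole numbers. Tests covered the 13442 genes that reached 10 reads over both libraries, and 3361 were left out. Each gene's reads were set against the library totals by a two-sided exact binomial test (scipy 1.17.1), with Benjamini-Hochberg adjustment over all genes tested. Calls needed an adjusted p no higher than 0.001 and a 2-fold difference, as the study's methods set them. Before logs were taken, 0.5 read was added to each library in proportion to its total. Intervals are exact Clopper-Pearson at 95% and, like the test, cover counting error only, since without molecular identifiers several reads may stem from 1 molecule. The test compares these 2 libraries, not the conditions. A count of 0 allows 3 reads, or 0.29 CPM (control) and 0.33 CPM (HTL treatment). The test was checked on simulated counts with known changes.

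Every member is accounted for. Reads or FPKM, with the log2 ratio and its interval, are given for called members, Fzd2 and the most abundant member in each of 8 role groups. They are also given for the member of largest absolute log2 ratio in each group, among those with a mean of at least 50 reads. From other lists the largest called rise and fall are given. Wnt4, Rspo2, Dlx5, Tlr2, Frat1, Frat2, Usp34, Tnfrsf19, T, Ccnd1 and Sp5 were added after their values were seen. The members, lists and tests were chosen with earlier results of these data known. A planned search of protein sequences was not run. Gene positions are from GENCODE M1 (NCBIM37), the assembly that mm9 names. Of the 52 members, 12 had fractional counts and 13 had exons that overlap another gene on the opposite strand. Alternatives were TMM (edgeR 4.0.16), median of ratios (DESeq2 1.42.0) and upper quartile scaling, other filters, 5 reads added, FPKM + 1, 10 classes of length, and the exact test of edgeR at assumed spreads. Of these, 5 reads added, FPKM + 1 and the classes of length changed the log2 ratio only and kept the adjusted p of column totals. edgeR's quasi-likelihood test and DESeq2's test could not be fitted without replicates.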

Additional observations from a re-analysis of the deposited data

How the results depend on the processing

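No paired analysis was possible because only 1 library stood for each condition, and none was left out. The 6 members called became 0 at an assumed coefficient of variation of 0.2 or 0.4 and 22 (10 higher, 12 lower) without the log2 cutoff, where 38.6% of all genes passed (1955 higher, 3240 lower), and lay between 4 (FPKM + 1, without Fzd1 and Fzd2) and 7 (TMM, median of ratios, upper quartile) elsewhere. The count beyond 1.5-fold lay between 12 and 16. The median of the members, -0.05, turned positive with TMM (0.0811), the median of ratios (0.0876), the upper quartile (0.0446) and relative to the length class (0.19), since these raise the ratio of each member; it was -0.0358 with no filter, -0.0362 at a mean of at least 50 reads, -0.0386 with 5 reads added and -0.0264 with FPKM + 1. Tnks2 turned to 0.11 with TMM and the median of ratios, 0.0695 with the upper quartile and 0.35 relative to its length class, and Lrp5 to 0.12 in the last. In all, 7 members turned positive with TMM and with the median of ratios, 5 with the upper quartile and 12 relative to the length class, and none of these was called.

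The 7 calls among other Wnt genes became 4 with a mean of at least 50 reads, with FPKM + 1 and at a coefficient of variation of 0.1, 1 at 0.2, 0 at 0.4 and 24 without the log2 cutoff. The 23 calls among genes with a Wnt term became 15 with FPKM + 1, 3 at 0.2, 0 at 0.4 and 70 without the log2 cutoff. The 5 calls among beta-catenin targets became 3 with TMM, the median of ratios, FPKM + 1 and relative to length, 2 at 0.2, 0 at 0.4 and 8 without the log2 cutoff. Fewer genes are tested at a mean of at least 50 reads, and leaving out the log2 cutoff can only add calls. Adding 1 to FPKM shrinks low-level ratios, and a larger assumed spread makes the test stricter. Over all genes 11.5% were called at a mean of at least 50 reads and 6.07% with FPKM + 1, against 10.8%. The share was 8.38% at 0.1, 0.893% at 0.2, 0.0446% at 0.4 and 38.6% without the log2 cutoff. It was 10.1% with TMM, 10% with the median of ratios and 9.58% relative to length. Whether the lists moved more than all genes was not tested. Depth limits Fzd8, Dkk1, Rnf43, Ror1, Wnt5a and Wnt5b, whose intervals are wide.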
